A study of Homo sapiens with 6 samples.

Results

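The mRNA levels of 10 genes that act upstream of aldolase in glycolysis, or that set the pace of these early steps, were examined in HT29 cells after knockdown of ALDOA. The genes were chosen by symbol, namely HK1, HK2, GPI, PFKL, PFKM, PFKP, FBP1, PFKFB2, PFKFB3 and PFKFB4, and all 10 were found among the 28278 gene symbols counted in each library. HT29 is an established human colorectal adenocarcinoma line. The cells received an siRNA against ALDOA (siALDOA, labelled ALDOA KD) or a scrambled siRNA (siControl, labelled WT), and RNA was isolated 48 h later from 3 biological replicates of each. The labels speak of an siRNA without naming its sequence, and cells without transfection were not analysed here, so the loss of ALDOA and other effects of this siRNA cannot be told apart.

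Hexokinases trap glucose in the cell as glucose 6-phosphate, which GPI turns into fructose 6-phosphate. Phosphofructokinase-1, assembled from the liver (PFKL), muscle (PFKM) and platelet (PFKP) subunits, then makes fructose 1,6-bisphosphate, the substrate that aldolase splits, and FBP1 runs this step backwards in gluconeogenesis. The PFKFB enzymes make and break fructose 2,6-bisphosphate, a signal molecule that activates phosphofructokinase-1 and inhibits FBP1. Many tumor cells are known for high HK2 and PFKFB3, genes that hypoxia and MYC can induce.

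Of the 10 genes, PFKL rose after ALDOA knockdown, and it was the only one past an adjusted p < 0.05 in edgeR's quasi-likelihood test. PFKFB4 (log2 fold change 0.40) and PFKM (0.17) were higher and PFKFB3 (-0.30) and HK2 (-0.23) were lower on average without passing that threshold. HK1 (0.02), GPI (0.06) and PFKP (-0.06) stayed closest to their control level. The target itself, ALDOA, was at 283, 305 and 280 CPM (read counts per 1e6 counts of the library, scaled by TMM) with siALDOA and at 592, 637 and 668 CPM with siControl.

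The count of 1 of 10 genes called higher stands beside 4.36% of all 15307 tested genes. None of the 10 was called lower (0 of 10), beside 5.29% of all tested genes. At an unadjusted p under 0.05 the counts were 4 higher and 2 lower, beside 1728 and 1888 of the 15307 tested genes. At the adjusted threshold DESeq2 called 1 of the 10 lower, beside 925 of all tested genes, and limma-voom 0, beside 782. At the unadjusted p < 0.01 that the study used, 2 of the 10 (PFKL and PFKFB4) were higher, beside 5.72% of all genes, and 1 (PFKFB3) was lower, beside 6.74%. The libraries of the 2 groups did not overlap for 3 genes that were higher (PFKL, PFKM and PFKFB2) and 1 that was lower (PFKFB3), beside 13.1% and 14.6% of all genes. The median log2 fold change was 0.09 over the 10 genes and 0.0016 over all tested genes. In either direction 1 of the 10 was called at the adjusted threshold, beside 9.66% of all tested genes. At an unadjusted p under 0.05 the share of the 10 was larger than that of all genes in both directions. The 10 genes were not tested as a group, so nothing particular to them as a group can be read from these counts.

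The libraries held 27277538 to 33237914 counts, and each of the 10 genes had at least 233 counts in every library. Ribosomal RNA genes took 7.71% to 17.4% of a library's counts, most in siControl replicates 1 and 2. Of 12 intestinal epithelial markers 11 were tested, with KRT8, KRT18 and KRT19 the most abundant, KRT19 (log2 fold change 0.38) being called higher and KRT18 (-0.28) lower. KRT18 lost the call with library totals only (adjusted p = 0.243), without siALDOA replicate 2 or 3 and without siControl replicate 2 or 3 (adjusted p up to 0.0750). LGALS4 was among 7308 symbols listed at 0 in all libraries, and whether such symbols were counted at all is not given in the sources used here. The summed level of 10 leukocyte markers was 0.299 to 0.539 CPM with siALDOA and 0.192 to 0.577 CPM with siControl, with PTPRC at 1 count in a single library and CD3E, CD3D and TYROBP listed at 0. The 8 fibroblast markers summed to 3.16 to 4.47 CPM and 3.21 to 4.46 CPM. The 8 endothelial and erythroid markers summed to 0.493 to 1.33 CPM with siALDOA and 1.41 to 2.15 CPM with siControl, with PECAM1, the only one tested, called lower (-1.23, adjusted p = 0.0429). PECAM1 lost the call with library totals only (adjusted p = 0.0523) and in the 5 fits that left out a library other than siALDOA replicate 2 (adjusted p up to 0.178, without siControl replicate 3). All 19 tested interferon-response genes were called higher, their summed level being 4754 to 5846 CPM with siALDOA and 2126 to 2405 CPM with siControl. The part of this response in the results below was not tested.

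**Figure D1:**
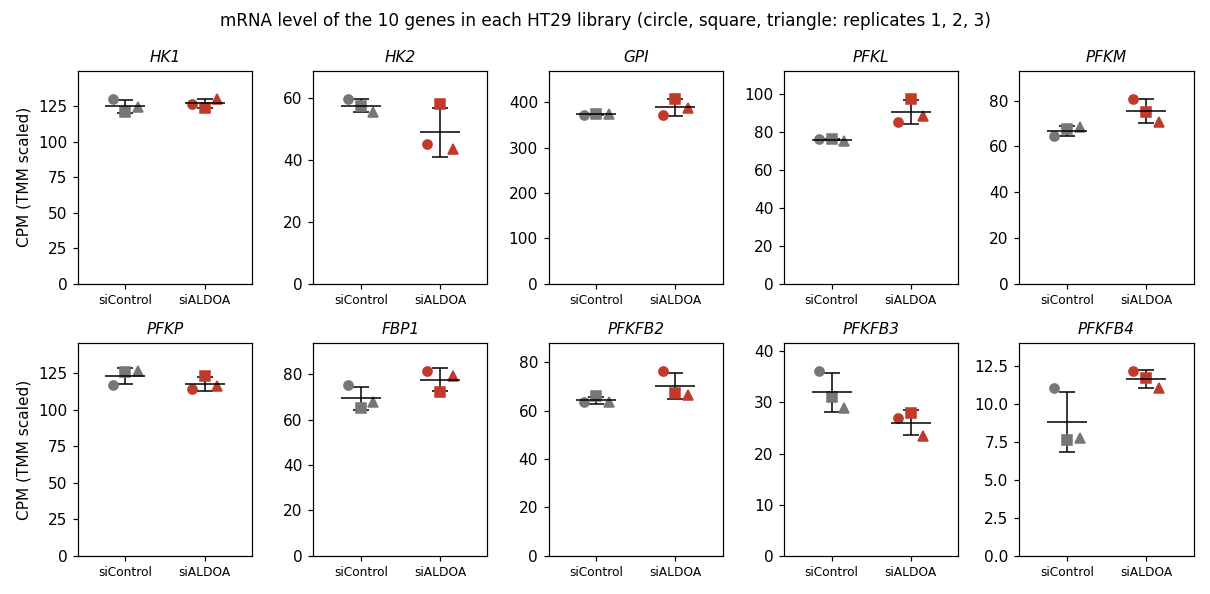
Level of each gene in CPM (y axis, from 0) in the 3 siControl (grey) and 3 siALDOA (red) libraries, with the replicates as circles, squares and triangles and the mean with its SD in black. The 3 siALDOA points lie above all siControl points for PFKL, PFKM and PFKFB2 and below them for PFKFB3.

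To ask how the hexokinase step stood, the isozymes were examined alongside HKDC1, a related hexokinase added with earlier results of these data known. HK1 (ENSG00000156515, chromosome 10 of hg38, 69269984 to 69401884), the widely expressed form, was at 127, 124 and 130 CPM with siALDOA and at 130, 121 and 125 CPM with siControl. Its groups overlapped, and its log2 fold change of 0.02 had a 95% interval from -0.10 to 0.14. HK2 (ENSG00000159399, chromosome 2, 74834127 to 74893359), the inducible form that many tumors carry, was at 45.05, 58.0 and 43.4 CPM with siALDOA and at 59.7, 57.2 and 55.4 CPM with siControl.

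For HK2, siALDOA replicate 2 lay within the range of the controls while replicates 1 and 3 lay below it. The log2 fold change was -0.23 (standard error 0.088, adjusted p = 0.103), and leaving out siALDOA replicate 2 gave -0.38 (adjusted p = 0.00521). Over all fits that left out a library, it ranged from -0.38 to -0.16, with an adjusted p up to 0.349. HKDC1 was at 47.4, 45.8 and 47.6 CPM with siALDOA and at 58.4, 57.7 and 57.8 CPM with siControl. It fell by 0.31 on the log2 scale (standard error 0.064, adjusted p = 0.00340), with no overlap between the groups. With library totals in place of TMM scaling, HKDC1 did not pass the threshold (adjusted p = 0.0906). In bulk RNA, fewer cells that express a gene and less of its RNA per cell cannot be told apart.

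Since longer transcripts give more reads, the isozymes were compared as CPM per kb of exon. HK1 made up 49.5%, 46.6% and 50.5% of the summed level of HK1, HK2 and HKDC1 with siALDOA and 44.1%, 42.9% and 44.01% with siControl. The HK1 share was therefore 5.16 percentage points higher with siALDOA on average (exact permutation p = 0.1, 0.129 after adjustment over 9 shares). The log2 fold change of HK1 itself was 0.02, and those of HK2 and HKDC1 in the same sum were -0.23 and -0.31. The HKDC1 share was 32.3%, 33.4% and 33.3% with siControl and 29.4% ± 1.16 (SD, n = 3) with siALDOA, a difference of -3.62 percentage points (exact permutation p = 0.1). The HK2 share was 20.4%, 25.4% and 19.5% with siALDOA and 23.6%, 23.6% and 22.7% with siControl, with overlapping groups (exact permutation p = 0.4). Its mean difference of -1.54 percentage points went to -3.34 without siALDOA replicate 2 and to -0.42 without siALDOA replicate 3. The log2 ratio of HK2 to HK1 differed by -0.27, also with overlap (exact permutation p = 0.3). That difference ranged from -0.42 to -0.17 with a library left out. With 3 libraries against 3, p = 0.1 is the smallest value that this two-sided exact permutation test can give, so no share or ratio could pass 0.05. The summed level of the 3 hexokinases, examined after the single values were seen, was 37.3 to 38.6 CPM per kb with siALDOA and 40.9 to 42.8 CPM per kb with siControl.

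GPI (ENSG00000105220, chromosome 19, 34359480 to 34402413), which turns glucose 6-phosphate into fructose 6-phosphate, was at 371, 409 and 388 CPM with siALDOA and at 371, 374 and 374 CPM with siControl. The controls lay close together, the siALDOA libraries were spread more widely, and replicate 1 lay below all controls narrowly. Its log2 fold change was 0.06 (95% interval -0.05 to 0.18, adjusted p = 0.562). With a library left out it ranged from 0.024 to 0.093.

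Among the 10 genes, the change that passed the test was in a single phosphofructokinase subunit, PFKL. PFKL (ENSG00000141959, chromosome 21, 44300051 to 44327376), the liver-type subunit, was at 85.3, 97.4 and 88.3 CPM with siALDOA and at 75.9, 76.1 and 75.3 CPM with siControl. All 3 siALDOA libraries were above all controls, and the mean rose by 19.2%. On the log2 scale this was 0.25 (standard error 0.064, adjusted p = 0.0135).

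The call of PFKL was lost without siALDOA replicate 2 (log2 fold change 0.20, adjusted p = 0.102), without siControl replicate 2 (0.26, 0.0568) and without siControl replicate 3 (0.25, 0.0691). The share of ribosomal RNA was close, at 7.71%, 8.11% and 8.15%, in siALDOA replicates 2 and 3 and siControl replicate 3. In these 3 libraries, with a single control among them, PFKL was at 97.4, 88.3 and 75.3 CPM. In siALDOA replicate 1 and siControl replicates 1 and 2 the ribosomal RNA share was 13.1%, 17.4% and 15.3%. PFKL was at 85.3, 75.9 and 76.1 CPM there. Leaving out the ribosomal RNA genes gave the same log2 fold change of 0.25 for PFKL (adjusted p = 0.0130). A bearing of the ribosomal RNA share on PFKL was not tested.

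PFKM (ENSG00000152556, chromosome 12, 48105139 to 48146404), the muscle-type subunit, was at 80.9, 74.8 and 70.6 CPM with siALDOA and at 64.3, 67.6 and 68.6 CPM with siControl. The groups did not overlap, but the test gave an adjusted p = 0.105 for its log2 fold change of 0.17 (standard error 0.066), which is not a call. PFKP (ENSG00000067057, chromosome 10, 3066333 to 3137718), the platelet-type subunit, was at 113.9, 123.05 and 115.8 CPM with siALDOA and at 117, 126 and 126 CPM with siControl. Its groups overlapped, and its log2 fold change was -0.06 (95% interval -0.19 to 0.06, adjusted p = 0.571).

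Because the subunits assemble into mixed tetramers, their proportions were compared within each library. PFKP held the largest share of the summed level per kb of exon in all 6 libraries, with 41.4%, 42.7% and 43.1% after siALDOA and 46.3%, 47.6% and 47.6% after siControl. PFKL had 27.01%, 29.4% and 28.6% against 26.3%, 25.04% and 24.7%, and PFKM had 29.2% ± 2.05 (SD, n = 3) against 27.5% ± 0.170 (SD, n = 3). None of these shares overlapped between the groups, and each had an exact permutation p = 0.1. The difference of 1.71 percentage points in the PFKM share went to 0.531 without siALDOA replicate 1. The difference in the PFKP share was -4.74 percentage points. By the longest transcript, the mean siControl shares of PFKP, PFKM and PFKL were 54.6%, 27.1% and 18.3%. Per kb of exon they were 47.2%, 27.5% and 25.3%. The log2 ratio of PFKP to PFKL, which does not depend on the scaling between libraries, was 0.38 ± 0.041 (SD, n = 3) with siALDOA and 0.70 ± 0.070 (SD, n = 3) with siControl (exact permutation p = 0.1, 0.2 after adjustment over 6 ratios). The log2 ratio of PFKM to PFKL was -0.26 ± 0.16 (SD, n = 3) and -0.18 ± 0.053 (SD, n = 3), with overlapping libraries (exact permutation p = 0.5). The difference of -0.078 in this ratio ranged from -0.17 to -0.018 with a library left out. The summed level of the subunits was also examined after the single values were seen. It was 34.5 to 37.1 CPM per kb with siALDOA and 32.4 to 34.2 CPM per kb with siControl. The groups did not overlap but nearly touched.

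**Figure D2:**
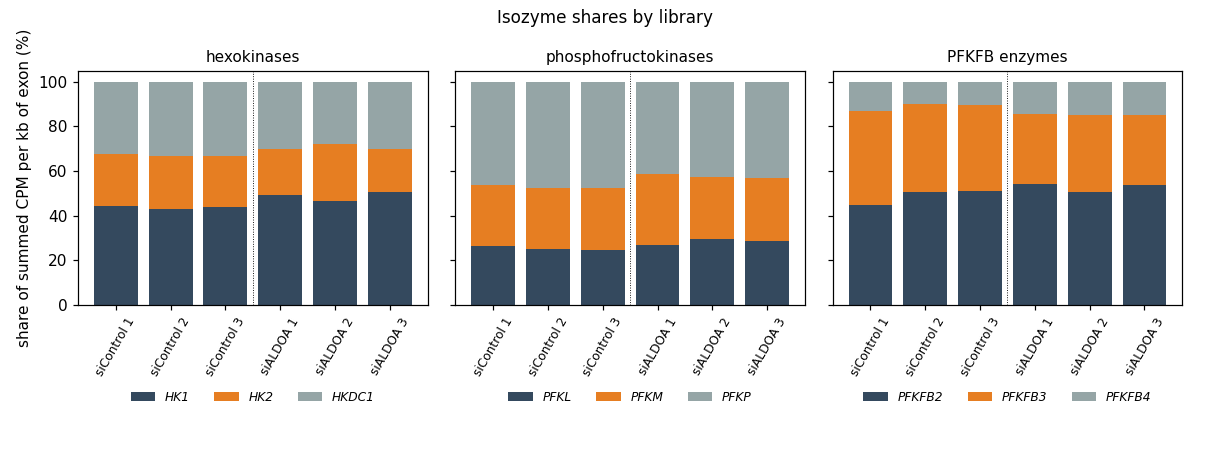
Share of each isozyme (y axis, percent) in the summed CPM per kb of exon of its family, 1 bar per library with siControl left and siALDOA right of the dotted line. In the siALDOA bars the PFKP part is smaller (42.4% against 47.2% on average), as is the PFKFB3 part (32.6% against 40.2%).

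FBP1 (ENSG00000165140, chromosome 9, 94603133 to 94640249), the enzyme that reverses the phosphofructokinase step, was at 81.6, 72.1 and 79.4 CPM with siALDOA and at 75.2, 65.1 and 68.0 CPM with siControl. In siALDOA replicate 2 it was below siControl replicate 1, and the other siALDOA libraries were above all controls. On the log2 scale FBP1 differed by 0.16, which did not pass the threshold (adjusted p = 0.158). The log2 ratio of FBP1 to PFKL was -0.22 ± 0.19 (SD, n = 3) with siALDOA and -0.13 ± 0.11 (SD, n = 3) with siControl (exact permutation p = 0.6).

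None of the PFKFB enzymes passed the test. PFKFB2 (ENSG00000123836, chromosome 1, 207034366 to 207081024), a bifunctional form regulated by insulin and AKT signaling, was at 76.5, 67.3 and 66.5 CPM with siALDOA and at 63.4, 65.9 and 63.5 CPM with siControl. Its libraries did not overlap, although siALDOA replicate 3 and siControl replicate 2 were close. The log2 fold change was 0.12 (standard error 0.067, adjusted p = 0.273), and it was 0.058 without siALDOA replicate 1 (adjusted p = 0.635).

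PFKFB3 (ENSG00000170525, chromosome 10, 6144934 to 6254644), the form with the strongest kinase activity, was at 26.9, 27.9 and 23.3 CPM with siALDOA and at 36.2, 31.0 and 28.8 CPM with siControl. All siALDOA libraries lay below all controls. The log2 fold change of -0.30 (standard error 0.095) had an adjusted p = 0.0538 in edgeR and 0.0419 in DESeq2. It was -0.20 without siControl replicate 1, the highest library, and -0.37 without siControl replicate 3, where the adjusted p was 0.0416.

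PFKFB4 (ENSG00000114268, chromosome 3, 48517684 to 48562015), a form that hypoxia can induce, was at 12.2, 11.7 and 11.1 CPM with siALDOA and at 11.1, 7.63 and 7.77 CPM with siControl. Replicates 2 and 3 of siControl were far below the rest, and siControl replicate 1 was level with the lowest siALDOA library. The log2 fold change was 0.40 (standard error 0.14, adjusted p = 0.0784), and leaving out siControl replicate 1 gave 0.60 (adjusted p = 0.00760). With library totals only it passed the threshold as well (0.48, adjusted p = 0.0294). Over the fits that left out a library, the log2 fold change ranged down to 0.31, with an adjusted p up to 0.291.

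Ratios within the family were among the 6 ratios chosen with earlier results of these data known, so they are no independent support for the single values. The log2 ratio of PFKFB4 to PFKFB3 was -1.14, -1.25 and -1.08 with siALDOA and -1.70, -2.02 and -1.89 with siControl. All siALDOA libraries were above all controls, by 0.72 on the log2 scale on average (exact permutation p = 0.1, 0.2 after adjustment over 6 ratios). The log2 ratio of PFKFB3 to PFKFB2 was different by -0.42 with siALDOA, also without overlap (exact permutation p = 0.1). Per kb of exon, PFKFB3 made up 32.6% ± 1.91 (SD, n = 3) of the family with siALDOA and 40.2% ± 1.97 (SD, n = 3) with siControl. PFKFB4 made up 14.6% ± 0.255 (SD, n = 3) and 11.1% ± 1.72 (SD, n = 3). PFKFB2 made up 52.7% ± 1.92 (SD, n = 3) and 48.8% ± 3.59 (SD, n = 3), with overlapping libraries (exact permutation p = 0.3). The summed level of the family, examined after the single values were seen, overlapped between the groups. It was 12.2 to 13.9 CPM per kb with siALDOA and 12.2 to 14.0 CPM per kb with siControl.

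**Figure D3:**
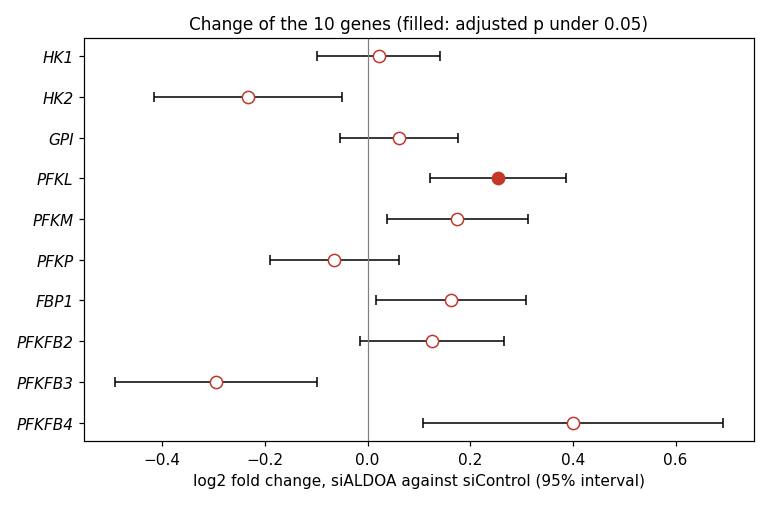
Log2 fold change of each gene (x axis, siALDOA against siControl) with its 95% interval, filled where the adjusted p was under 0.05. Only PFKL (0.25) is filled, and the intervals of HK2, PFKM, FBP1, PFKFB3 and PFKFB4 lie on 1 side of 0.

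In siControl cells the order of the levels per kb of exon was FBP1 (36.3), GPI (35.0), HK1 (18.2), PFKP (15.8), HK2 (9.71), PFKM (9.22), PFKL (8.49), PFKFB2 (6.32), PFKFB3 (5.23) and PFKFB4 (1.45). FBP1 and GPI did not differ beyond the spread of FBP1 (SD 2.72), and the siControl libraries of HK2 and PFKM overlapped, at 9.36 to 10.1 and 8.88 to 9.47 CPM per kb. The order depended on the length used. Divided by the longest transcript, GPI (86.0) stood above FBP1 (46.7), PFKP (37.7) above HK1 (31.3), and PFKM (18.7) and PFKL (12.6) above HK2 (10.2), while the PFKFB genes kept their places. By either length PFKFB4 was the lowest.

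Some exons of these genes are shared with neighbours, and since the strand setting of the counting is not given in the sources used here, such reads cannot be assigned. GPI shares 542 exon bases with the protein-coding gene ENSG00000266953 and PFKP shares 120 with ENSG00000278419, both on the same strand, and HK1 shares 49 with the pseudogene RPS15AP28 on the opposite strand. None of these neighbours has values in the files used here. PFKM shares 516 exon bases with SENP1 on the opposite strand, PFKFB2 shares 315 with YOD1 and FBP1 shares 283 with PCAT7. The log2 fold changes of SENP1, YOD1 and PCAT7 were -0.04, -0.08 and -0.14, none past the threshold. PFKFB4 shares 298 bases with UCN2 on the same strand, which had at most 2 counts in a library.

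The promoters of PFKL, the called gene, and of HK2 and PFKFB3, the genes whose windows hold an E-box, are shown, although HK2 and PFKFB3 did not pass the test. The E-box, searched as CACGTG on both strands, is the element bound by MYC and by other factors of its class, and it contains ACGTG, the core of the hypoxia response element. Each line gives the 150 bases before a RefSeq start site (GRCh38.p14, plus strand) with CACGTG in capitals. The windows are chr21:44299903-44300052 for PFKL, chr2:74835020-74835169 for the downstream HK2 start and chr10:6202782-6202931 for the downstream PFKFB3 start.
PFKL: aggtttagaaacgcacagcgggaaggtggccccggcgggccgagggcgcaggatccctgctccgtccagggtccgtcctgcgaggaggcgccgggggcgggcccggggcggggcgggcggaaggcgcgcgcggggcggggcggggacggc
HK2: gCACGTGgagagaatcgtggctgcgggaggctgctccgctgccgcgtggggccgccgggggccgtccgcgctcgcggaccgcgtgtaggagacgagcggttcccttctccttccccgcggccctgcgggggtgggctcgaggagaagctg
PFKFB3: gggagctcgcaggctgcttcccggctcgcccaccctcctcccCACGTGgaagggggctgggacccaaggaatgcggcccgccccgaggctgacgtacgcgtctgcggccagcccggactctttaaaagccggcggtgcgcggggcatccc

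The PFKL window is 80.7% G and C with 23 CpG and no E-box. In PFKFB3 the E-box starts 108 bases before the start site, and in HK2 the printed E-box starts 149 bases before it, with another CACGTG in the longer window of this HK2 start, outside the printed bases. Longer RefSeq windows, which also reach past the start, were found for 9 of the 10 genes, 26 windows in all. CACGTG occurred in 2 of the 26 windows (1 each of HK2 and PFKFB3), against 7.26% of all 35116 promoter windows. ACGTG occurred in 7 of the 26 windows (of HK2, PFKP, PFKFB3, PFKM and GPI), against 21.4% of all windows. TGATGNAA, a core of the ATF4 element, occurred in 2 overlapping windows of HK1, against 3.62%. A gene with several starts has several chances of a match, and a match describes the sequence and not a bound site.

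The rest of the pathway was followed in gene lists written with earlier results of these data known. Across all tested genes 9.66% were called in either direction. Of 6 tested relatives of the upper enzymes, 1 was called, HKDC1, and ADPGK, an ADP-dependent glucokinase, was at 70.3 CPM with siALDOA and 66.8 CPM with siControl (log2 fold change 0.07). Of 16 tested aldolases and enzymes below aldolase, 1 was called, ALDOA itself (-1.13, adjusted p = 6.95e-11). GAPDH (0.11) and PKM (0.05), the most abundant of these, did not pass the threshold, and the median of the list was 0.07.

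Of 24 tested genes on the branches that leave glucose 6-phosphate and fructose 6-phosphate, 2 were called. PGD, a dehydrogenase of the pentose phosphate pathway, fell from 178 ± 5.15 CPM (SD, n = 3) to 144 ± 1.38 CPM (SD, n = 3), by -0.30 on the log2 scale (adjusted p = 0.00120). It did not pass the threshold with library totals only (adjusted p = 0.0804). PYGB, a glycogen phosphorylase, and TKT, a transketolase, had log2 fold changes of 0.03 and 0.04. The median of the list was -0.02.

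Of 12 tested transporters and their regulators, 4 were called. SLC16A7, a monocarboxylate transporter, fell from 29.8 ± 0.576 CPM (SD, n = 3) to 18.01 ± 0.791 CPM (SD, n = 3), by -0.72 on the log2 scale (adjusted p = 5.81e-06). TXNIP, which restrains glucose uptake, rose by 0.34 (adjusted p = 0.00500), but had an adjusted p of 0.0506 when siALDOA replicate 2 was left out. SLC2A1, the main glucose transporter, was lower by -0.19 (adjusted p = 0.0473) and SLC16A3, a lactate exporter, by -0.25 (adjusted p = 0.0418). Both lost the call with library totals only and in the 5 fits that left out a library other than siALDOA replicate 2, in which the adjusted p reached 0.149 for SLC2A1 without siControl replicate 3 and 0.151 for SLC16A3 without siALDOA replicate 3. SLC2A1 also lost it with a minimum of 10 counts in every library (adjusted p = 0.0541).

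HK2, PFKFB3 and PFKFB4 are known targets of the hypoxia-inducible factors. Of 25 tested genes of that pathway outside the 10, 5 were called, 2 higher and 3 lower, and the median log2 fold change was -0.02. EPAS1, which encodes HIF-2α, fell by -0.79 (adjusted p = 1.87e-07). DDIT4, an mTORC1 inhibitor, fell by -0.33 (adjusted p = 0.00283) and EGLN1, an oxygen-sensing prolyl hydroxylase, by -0.24 (adjusted p = 0.0170). CA9, a carbonic anhydrase, rose by 0.42 (adjusted p = 2.83e-04) and ERO1A, an oxidase of the endoplasmic reticulum, by 0.28 (adjusted p = 0.00452). VEGFA was at -0.09. DDIT4 and EGLN1 did not pass with library totals only (adjusted p = 0.0626 and 0.230), and EGLN1 also lost the call without siALDOA replicate 2 or 3 and without siControl replicate 1 or 2.

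Of 18 tested regulators of these enzymes, 3 were called, all lower. PRKAG2, a regulatory subunit of AMPK, fell by -0.46 (adjusted p = 0.00496), PPARGC1B, a coactivator of mitochondrial genes, by -0.43 (adjusted p = 0.0116) and KLF4, an epithelial transcription factor, by -0.36 (adjusted p = 0.0279). KLF4 lost the call in 4 of the 6 fits that left out a library, those without siALDOA replicate 1 or 2 and without siControl replicate 2 or 3, and PPARGC1B lost it without siControl replicate 1 (adjusted p = 0.0669). With library totals only, neither passed (adjusted p = 0.136 and 0.0544). SREBF1 and AKT2, the most abundant of the list, were at -0.10 and -0.09.

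**Figure D4:**
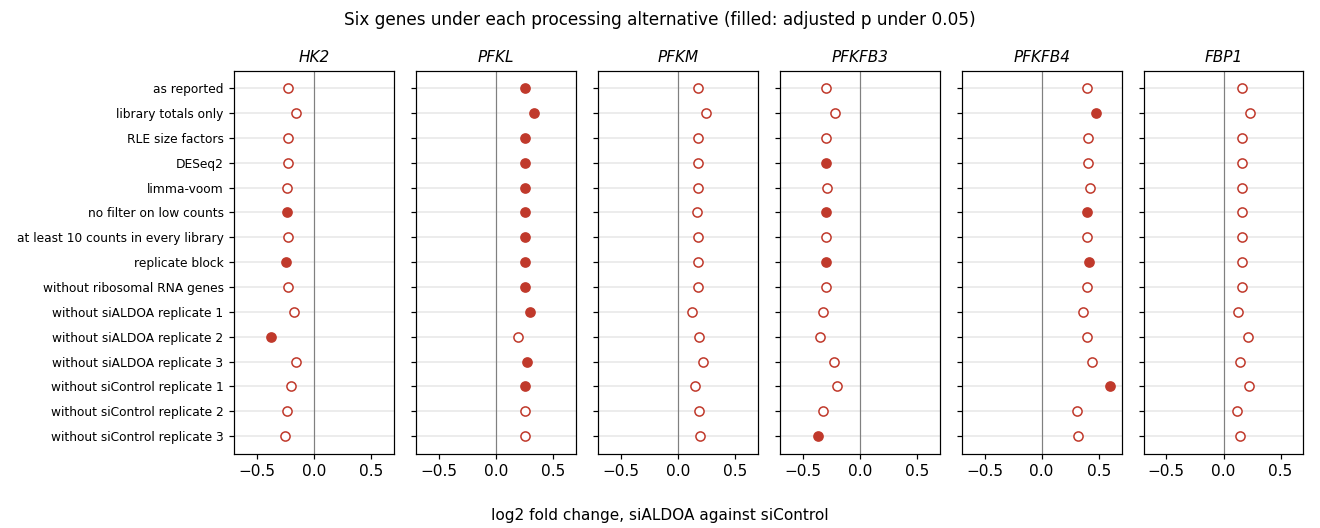
Log2 fold change (x axis) of HK2, PFKL, PFKM, PFKFB3, PFKFB4 and FBP1 under each processing alternative (y axis), filled where the adjusted p was under 0.05. Each gene stays on 1 side of 0, PFKL is filled in 11 of 14 alternatives, and PFKM and FBP1 are filled in none.

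Over the 6 libraries, the genes whose log2 CPM followed that of PFKL most closely were SECTM1, MARCKSL1 and MMS22L, with Pearson correlations of 0.996, 0.995 and 0.990. This is a description over 6 points that share the same groups, and 100 tested genes had a correlation over 0.95.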

How the data were processed

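Read counts of 6 HT29 libraries, 3 siALDOA and 3 siControl, were analysed. Per the labels and the methods of the study, TopHat2 (alignment, hg38) and gfold (counting per gene) were used by the authors, and the deposited files hold raw counts per gene symbol. Annotation, strand setting and handling of multiply matching reads are not given in the sources used here.

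Counts were tested in R 4.3.3 with edgeR 4.0.16 (filterByExpr, TMM, quasi-likelihood F-test, Benjamini-Hochberg adjustment over 15307 genes), without covariates. Standard errors were derived from the F statistic, 95% intervals from its degrees of freedom. Log2 CPM used a prior count of 2. P-values measure the spread between the labelled biological replicates. limma 3.58.1 and DESeq2 1.42.0 were alternatives. Isozyme shares and ratios were compared by exact two-sided permutation tests (scipy 1.17.1), with exon lengths from GENCODE. Protein identities were not analysed here. In simulated data (siALDOA against siControl, 15146 genes) 67, 65 and 66 genes had changes of 0.25, 0.5 and 1 on the log2 scale. These were recovered in 14.9%, 66.2% and 90.9% of cases, with 15 false calls among 128 at an adjusted p < 0.05. The data held 1478 called genes, far more than the simulation changed, so the simulated rates need not hold for the data.

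Named were all members, ALDOA, of each list up to 6 called genes by p and the 2 most abundant (marker and interferon lists by their sums and counts), and the 3 genes most correlated with the member of smallest p. Members and lists were chosen with earlier results of these data known. G6PC1 was not matched by symbol and is not analysed here, and RIGI was analysed under its older symbol DDX58. The values of 1 called gene of the branch list are not reported here.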

Additional observations from a re-analysis of the deposited data

How the results depend on the processing

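The direction of HK2, GPI, PFKL, PFKM, PFKFB2, PFKFB3, PFKFB4, FBP1 and ALDOA was the same in all 14 alternatives. HK1 ranged from -0.0048 without siControl replicate 2 to 0.049 without siControl replicate 1 when a library was left out, and PFKP turned to 0.0078 with library totals only. BSG turned to 0.031 with library totals only. With a library left out, BSG ranged from -0.10 to 0.053, the fibroblast marker LUM from -0.47 to 0.027, and the difference in the log2 ratio of FBP1 to PFKL from -0.16 to 0.021. The number of called members moved with the processing, and the cause was not tested. With library totals only, 2 members were called higher at the adjusted threshold, and 4 higher and 0 lower at the unadjusted one, beside 1304 and 384 of all 15307 genes. Without a filter on low counts, 2 were called higher and 2 lower, also 2 lower at the unadjusted threshold, beside 832 higher and 1009 lower of all 20970 genes tested, and 1270 lower at the unadjusted threshold. DESeq2 called 1 lower, and a minimum of 10 counts left 1 higher at the unadjusted threshold, beside 870 of 14344 genes. With a library left out, 0 to 2 members were higher and 0 to 1 lower at the adjusted threshold, beside 359 to 644 higher and 471 to 790 lower of all genes, and 0 to 3 and 0 to 2 at the unadjusted one, beside 631 to 849 higher and 743 to 1051 lower.

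With library totals only, 896 genes were higher and 279 lower at an adjusted p < 0.05, against 668 and 810 with TMM, and the median log2 fold change of all genes was 0.075. The lists then held 0 called relatives of the upper enzymes, 2 aldolases and lower enzymes, 0 branch genes, 2 transporters, 3 hypoxia genes and 1 regulator. Without a filter, 2 relatives and 2 lower enzymes were called, and DESeq2 called 4 lower enzymes. Leaving out a library gave 1 to 2 relatives, 1 to 2 lower enzymes, 2 to 3 branch genes, 2 to 3 transporters, 4 to 5 hypoxia genes and 2 to 3 regulators. All isozyme shares moved the same way with the longest transcript as length and with each library left out. The percentages themselves depended on the length. The mean siControl HK1 share was 43.7% per kb of exon and 54.5% by the longest transcript.

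Libraries of the same replicate number deviated together only weakly (r = 0.036, 0.028 and 0.026), so the numbers were not taken as pairs, although each library correlated best with its own number. With the replicate number as a block, 2 members were called higher (PFKL and PFKFB4) and 2 lower (HK2 and PFKFB3), 2 also lower at the unadjusted threshold. The block gave 987 higher and 1175 lower genes in all, with 1307 lower at the unadjusted threshold, and called 2 relatives, 4 lower enzymes and 4 branch genes. In the simulated data 14.9% of the changes of 0.25 on the log2 scale were recovered, so most changes of that size were missed there.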
